A study of Mus musculus with 4 samples.

Results

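Angiopoietins, vascular endothelial growth factors (VEGFs) and their receptors were followed as a set of 10 genes in mouse alveolospheres. The set was chosen by name, as the rows of Angpt1, Angpt2, Angptl4, Tek, Tie1, Vegfa, Vegfc, Vegfd, Kdr and Flt1, and all 10 were found among the 32285 genes of the deposited matrix. Alveolospheres are three-dimensional cultures grown here from alveolar type 2 (AT2) cells, which make surfactant and act as progenitors of the alveolus, and from lung fibroblasts that carry the receptor PDGFRα. The 2 control libraries came from wildtype cells. In the 2 knockdown libraries the AT2 cells were wildtype and the transcriptional co-activators YAP and TAZ were knocked down in the PDGFRα-expressing cells only. All 4 libraries, controls included, received doxycycline in DMSO at 3 µg/ml from day 7 of culture until collection on day 14 in MTEC/Plus medium, and all belong to 1 batch in the labels. For the age and strain of the animals, the knockdown construct and its driver beyond the name PDGFRα, nothing is stated by the sources used here. The labels call the 2 libraries of a group biological replicates but do not name the animals or cultures behind them. The p-values below therefore rest on how much these libraries differ within a group, and that spread may be technical.

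In vessels, Angpt1 made by mural and stromal cells activates the endothelial receptor Tie2, the product of Tek, and stabilises the vessel wall, whereas Angpt2 is a context-dependent antagonist of the same receptor. Vegfa drives endothelial growth through VEGFR2, the product of Kdr, and is bound by VEGFR1, the product of Flt1, which also acts as a decoy. Vegfc and Vegfd act mainly on lymphatic endothelium. In the lung, epithelial VEGF and stromal angiopoietins are known to support the capillary bed that lies against the alveolar epithelium. The labels name AT2 cells and fibroblasts only, with no endothelial population, so the receptors were measured outside their usual cell type. Any ligand made by endothelium was not measured in that source.

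Libraries held 6508 to 15000 cells and 44284602 to 71523447 unique molecular identifiers (UMIs, each one counted RNA molecule), with more UMIs per cell in the knockdowns (medians of 4961 and 5946 against 3875.5 and 4142). In all, 1073 cell barcodes occurred in more than 1 library. UMIs were summed per library over 2 sets of classes of the authors' annotation. The set called fibroblasts below (5123 to 12041 cells) also held the smooth muscle, EMT-like and unknown mesenchymal classes. The deposited fibroblast classes alone had 4071 to 9259 cells. The epithelial set (1274 to 2589 cells) held AT2, AT1-like, cycling AT2 and transitional cells and an unnamed cluster 32 (21 to 82 cells). Such a sum cannot tell fewer expressing cells from less RNA per cell. Yap1 read 61.3 and 64.9 CPM (UMIs scaled to 1 fixed library total) in control fibroblasts and 40.9 and 36.4 CPM in knockdown fibroblasts (log2 difference -0.71 ± 0.11 SE, adjusted p = 0.00864, and 0.0559 without knockdown library 2). Wwtr1, which encodes TAZ, did not pass (-0.36 ± 0.13, adjusted p = 0.115). The makeup of the fibroblasts also differed: Wnt4-positive fibroblasts numbered 7 and 32 cells in both controls and 1362 and 971 in the knockdowns, Tgfbi-positive fibroblasts 5 and 38 against 931 and 404, and the smooth muscle class 724 and 753 against 48 and 5. Immune markers moved with the group as well, with 5 of 8 tested higher in knockdown fibroblast sums and summed levels of 3.81 to 5.45 CPM in controls and 12.2 to 16.8 CPM in knockdowns. Markers of AT2 cells stood higher in these sums in 4 of 8 cases (796 and 858 CPM summed in controls, 2350 and 1194 CPM in knockdowns). Lower were 4 of 4 basal, 3 of 4 mesothelial, 3 of 5 ciliated, 2 of 7 smooth muscle and 1 of 8 fibroblast markers. Of 6 pericyte markers tested 2 were higher and 1 lower, and of 7 AT1 markers 1 was higher. Over all genes tested in these sums, 4.42% passed as higher and 6.22% as lower at an adjusted p under 0.05. The part of any of these differences in makeup and markers in the results below was not tested.

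Endothelial cells were looked for because they normally carry the receptors. Pecam1, an adhesion molecule of endothelium, read 2.48 to 3.01 CPM over all cells, and the endothelial cadherin Cdh5 read 0.156 to 0.612 CPM. Other endothelial markers read higher, with Eng at 25.6 to 31.7 CPM, Esam at 9.79 to 26.5 CPM and Egfl7 at 5.28 to 8.51 CPM. Sox17, an endothelial transcription factor, was at 0 in 2 of the 4 libraries. Cells with UMIs of Pecam1, Cdh5 and the tight junction gene Cldn5 together numbered 0, 0, 2 and 0 in control libraries 1 and 2 and knockdown libraries 1 and 2. Of 14 endothelial markers beyond the set, 11 were tested in fibroblasts and 3 rose, namely Emcn (log2 1.49), Ramp2 (1.45) and Plvap (0.92), with adjusted p of 0.00584, 0.0212 and 0.0205. Of the 11, 0 passed as lower, and Mmrn2 stood below 0 (log2 -0.52) without passing. Of all genes tested in fibroblasts, 4.42% passed as higher. The summed level of the 14 went from 49.0 and 58.6 CPM in control fibroblasts to 66.8 and 71.0 CPM in knockdown fibroblasts. Kdr-positive cells numbered 23, 15, 104 and 81 in the same library order, and of these 0, 0, 3 and 1 carried a UMI of Pecam1, Cdh5 or Cldn5.

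Reference promoter sequence is shown for 2 genes that fell in the fibroblasts (Flt1 and Vegfc) and 2 that rose (Kdr and Vegfa), so that the responses described below can be read against the bases before each start site. The table of promoters from RefSeq (GRCm38.p6) matched 7 of the 10 genes, and Angpt1, Angpt2 and Angptl4 are named only. Each sequence is the 250 bases before the annotated start on the gene's own strand, 5′ to 3′, with motif matches in capitals. The windows are chr5:147726012-147726261 for Flt1 (minus strand), chr8:54077282-54077531 for Vegfc (plus), chr5:75978456-75978705 for Kdr (minus) and chr17:46032378-46032627 for Vegfa (minus, the more upstream of its 2 entries).
Flt1: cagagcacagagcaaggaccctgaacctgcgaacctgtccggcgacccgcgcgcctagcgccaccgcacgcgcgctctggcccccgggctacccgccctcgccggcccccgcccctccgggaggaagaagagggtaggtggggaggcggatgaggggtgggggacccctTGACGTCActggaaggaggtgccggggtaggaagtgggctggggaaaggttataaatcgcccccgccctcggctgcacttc
Vegfc: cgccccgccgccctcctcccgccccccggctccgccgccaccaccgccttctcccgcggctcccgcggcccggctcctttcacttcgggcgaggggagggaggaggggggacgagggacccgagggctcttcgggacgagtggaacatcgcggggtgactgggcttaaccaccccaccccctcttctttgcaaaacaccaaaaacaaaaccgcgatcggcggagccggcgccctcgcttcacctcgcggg
Kdr: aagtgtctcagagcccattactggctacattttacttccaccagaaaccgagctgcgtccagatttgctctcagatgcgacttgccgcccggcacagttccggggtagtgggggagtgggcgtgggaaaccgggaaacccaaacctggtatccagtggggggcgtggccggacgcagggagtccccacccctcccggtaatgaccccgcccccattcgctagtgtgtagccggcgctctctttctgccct
Vegfa: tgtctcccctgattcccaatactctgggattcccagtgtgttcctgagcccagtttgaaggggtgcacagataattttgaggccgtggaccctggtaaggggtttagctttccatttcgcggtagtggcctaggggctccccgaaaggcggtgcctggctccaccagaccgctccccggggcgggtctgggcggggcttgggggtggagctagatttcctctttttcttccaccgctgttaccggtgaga
The capitals in Flt1 mark TGACGTCA, the cyclic AMP response element (CRE), which stands in 1.55% of 32851 promoter windows of that length. The core letters GGAATG bound by TEAD factors, the DNA-binding partners of YAP and TAZ, were searched on both strands, stand in 12.6% of all windows and were found in 0 of the 8 windows of these genes. The hypoxia response core ACGTG, present in 16.6% of all windows, was found in the second Vegfa entry (chr17:46025164-46025413, minus strand) only among the 8. That window lies inside the Vegfa gene (chr17:46016993-46032369), downstream of its first start site. ACGTG and TGACGTCA share the letters ACGT. No match says only that these letters are not in this window, and a match is a description of the sequence.

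In the fibroblasts the knockdown changed the angiopoietin pair in opposite directions. Angpt2 was about 12.1-fold higher and Angpt1 was 2.55-fold lower (folds from the fit), Vegfa and Angptl4 were higher, and Vegfc was lower. The receptor gene Kdr was higher from a very low level, and Flt1 was 6.69-fold lower. Of the 10 genes, 9 could be tested in fibroblasts, and 4 rose, 3 fell and 2 (Tek and Vegfd) did not pass, while Tie1 was below the filter on low counts. Over all 17481 genes tested, 10.6% were called, 4.42% as higher and 6.22% as lower. The median log2 difference was -0.10 over the 9 and 0.01 over all genes.

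**Figure D1:**
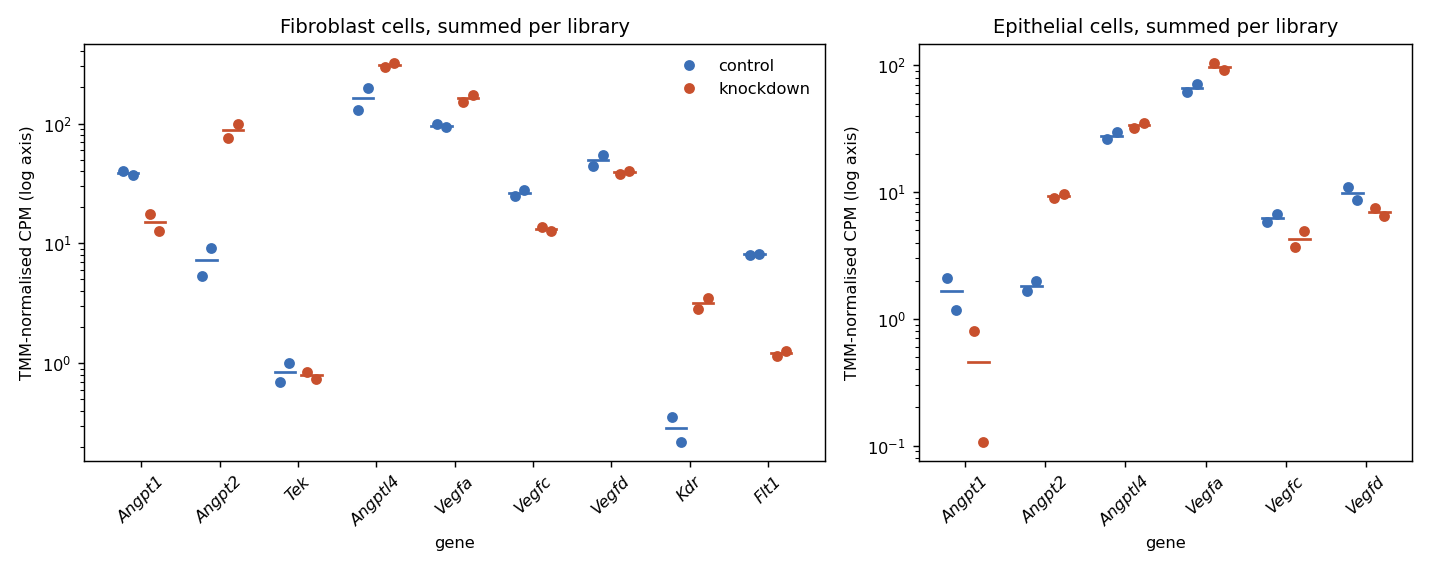
Level of each tested gene in the summed fibroblasts (left) and epithelial cells (right), in TMM-normalised CPM on a log axis. Each point is 1 library, bars are the means of the 2 libraries, and in fibroblasts Angpt2 lies between 5.30 and 9.17 CPM in controls and between 75.8 and 99.5 CPM in knockdowns.

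Angpt1 (chr15:42424723-42676977, minus strand, GRCm38, as are all gene positions here), the Tie2 agonist, read 40.0 and 37.5 CPM in control libraries 1 and 2 and 17.5 and 12.8 CPM in knockdown libraries 1 and 2. Both knockdown libraries lay below both controls. The log2 difference was -1.35 ± 0.15 (SE, n = 2 libraries per group) with adjusted p = 0.00296 by edgeR's quasi-likelihood test. Angpt2 (chr8:18690263-18741562, minus strand), the Tie2 antagonist, read 5.30 and 9.17 CPM in controls and 75.8 and 99.5 CPM in knockdowns. Its groups did not overlap, with a log2 difference of 3.60 ± 0.26 and adjusted p = 0.000498. Without the Wnt4-positive, Tgfbi-positive, unknown mesenchymal and smooth muscle classes, which sat mostly in 1 group, the difference was 2.15 with adjusted p = 0.00217, an alternative chosen after the class sizes were seen. With every fibroblast class given the same weight it was 2.80.

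As a share of the UMIs of both angiopoietin genes, Angpt2 made up 11.7% (95% exact interval 10.48 to 13.03) and 19.7% (18.1 to 21.3) in control fibroblasts. In knockdown fibroblasts it made up 81.2% (79.9 to 82.5) and 88.6% (87.6 to 89.6). The means differed by 69.2 percentage points, with an exact two-sided permutation p = 0.333, the smallest that 2 against 2 libraries allow. These are shares of counted molecules without a correction for transcript length, so they compare libraries and do not give a ratio of the 2 transcripts. The intervals here and below cover counting error only. After thinning to 2000 UMIs, 11 of 112 and 6 of 185 Angpt2-positive control fibroblasts, and 12 of 838 and 11 of 683 Angpt2-positive knockdown fibroblasts, also had an Angpt1 UMI. These are 9.82% and 3.24% of the Angpt2-positive control cells, beside 6.99% and 6.30% of the Angpt2-negative ones. In the knockdowns they are 1.43% and 1.61%, beside 3.15% and 2.43%. The share was lower among Angpt2-positive cells in 3 of the 4 libraries and was not tested.

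The angiopoietin receptors were barely detected. Tek (chr4:94739289-94874976, plus strand), which encodes Tie2, read 0.699 and 1.00 CPM in control fibroblasts and 0.840 and 0.740 CPM in knockdown fibroblasts. The groups overlapped, and the log2 difference of -0.10 ± 0.29 did not pass (adjusted p = 0.851). Tie1 (chr4:118471191-118490061, minus strand), the orphan partner of Tie2, had 1 and 3 UMIs in control fibroblasts and 3 and 1 in knockdown fibroblasts, and 0 in the epithelial cells of every library. In the epithelial sums a count of 0 allows up to 0.283 and 0.351 CPM in both controls and 0.177 and 0.323 CPM in the knockdowns, the level of 3 UMIs. No difference in Tie1 was detectable at this depth.

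Angptl4 (chr17:33773750-33781830, minus strand), a secreted inhibitor of lipoprotein lipase induced by PPAR factors and by low oxygen, read 130.01 and 197 CPM in control fibroblasts and 299 and 320.4 CPM in knockdown fibroblasts. Both knockdown libraries were above both controls, which differed from each other by more than the knockdowns did. The log2 difference was 0.92 ± 0.20 with adjusted p = 0.0263. Without knockdown library 2 it was 0.87 and did not pass (adjusted p = 0.0598).

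Vegfa (chr17:46016993-46032369, minus strand), the principal endothelial growth factor, read 99.6 and 92.9 CPM in control fibroblasts and 152 and 174 CPM in knockdown fibroblasts. The groups did not overlap, and the log2 difference was 0.76 ± 0.12 with adjusted p = 0.0104. Without knockdown library 2 it was 0.66 with adjusted p = 0.0514. Vegfc (chr8:54077606-54187096, plus strand), the lymphatic growth factor, read 24.7 and 27.6 CPM in controls and 13.8 and 12.7 CPM in knockdowns. It fell by 0.98 ± 0.12 on the log2 scale with adjusted p = 0.00352, and its groups did not overlap either. Vegfd (chrX:164373378-164402650, plus strand), the closest relative of Vegfc, read 44.1 and 54.9 CPM against 38.2 and 40.2 CPM. Its log2 difference of -0.34 ± 0.13 did not pass (adjusted p = 0.136), although both knockdown libraries were the lower ones. Vegfd did pass without control library 1 (-0.49, adjusted p = 0.0178), in the deposited fibroblast classes alone (-0.56, adjusted p = 0.0331), with a replicate block (-0.33, adjusted p = 0.00625) and with block and gene length offset (-0.34, adjusted p = 0.00769).

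**Figure D2:**
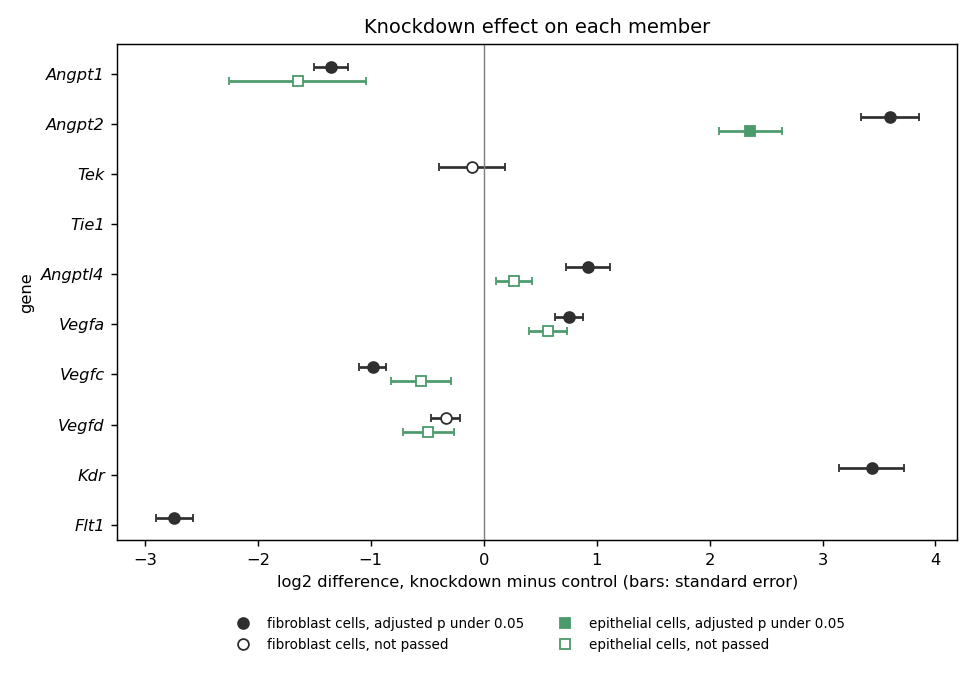
Log2 difference, knockdown minus control, of each gene in fibroblasts (circles) and epithelial cells (squares), with bars of 1 standard error. Filled symbols passed at an adjusted p under 0.05, and Angpt2 is the filled symbol in both, at 3.60 and 2.36.

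The VEGF receptor genes moved apart. Flt1 (chr5:147561604-147726011, minus strand), whose product VEGFR1 binds Vegfa and is also made as a soluble trap, read 8.01 and 8.16 CPM in control fibroblasts and 1.15 and 1.27 CPM in knockdown fibroblasts. That is a log2 difference of -2.74 ± 0.16 with adjusted p = 0.000219, from 447 and 447 UMIs in controls and 45 and 43 in knockdowns. Kdr (chr5:75932827-75978458, minus strand), which encodes VEGFR2, read 0.358 and 0.219 CPM in controls and 2.83 and 3.49 CPM in knockdowns. Its log2 difference was 3.43 ± 0.29 with adjusted p = 0.0011, resting on 20 and 12 UMIs against 111 and 118. Over all cells the Kdr UMIs lay unevenly, with up to 20 and 15 UMIs in a single cell of knockdown libraries 1 and 2, and at most 2 in a control cell.

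The fibroblast classes differed in how much of each angiopoietin transcript they held, which is given here as a description over the classes with at least 50 cells in both libraries of a group (13 in controls and 14 in knockdowns). In controls Angpt1 was highest in myofibroblast-like cells (60.3 and 68.7 CPM), whose libraries overlapped those of the next class, unknown mesenchymal cells (82.5 and 42.0 CPM). The inflammatory fibroblasts 2 came next (63.1 and 53.4 CPM). Epithelial classes read 0 to 3.61 CPM. In knockdowns the highest levels were in inflammatory fibroblasts 2 (41.1 and 32.9 CPM) and EMT-like cells (36.1 and 27.8 CPM), which overlapped, and the lowest of any fibroblast class in Tgfbi-positive (8.19 and 6.65 CPM) and Wnt4-positive fibroblasts (9.22 and 5.89 CPM), whose libraries overlapped those of the Myo1f-positive fibroblasts.

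Angpt2 in controls was highest in inflammatory fibroblasts 1, at 16.4 and 22.3 CPM, above the next class without overlap. In knockdowns Wnt4-positive fibroblasts stood first at 297 and 451 CPM, ahead of unknown mesenchymal cells at 155 and 253 CPM and Tgfbi-positive fibroblasts at 105 and 102 CPM, and these neighbours did not overlap. Wnt4-positive fibroblasts were 12.9% and 14.9% of the cells of the knockdown libraries and held 39.2% and 52.3% of their Angpt2 UMIs. After thinning, 33.3% and 41.0% of Wnt4-positive fibroblasts in the knockdowns carried an Angpt2 UMI, and 1.07% and 1.05% carried an Angpt1 UMI.

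**Figure D3:**
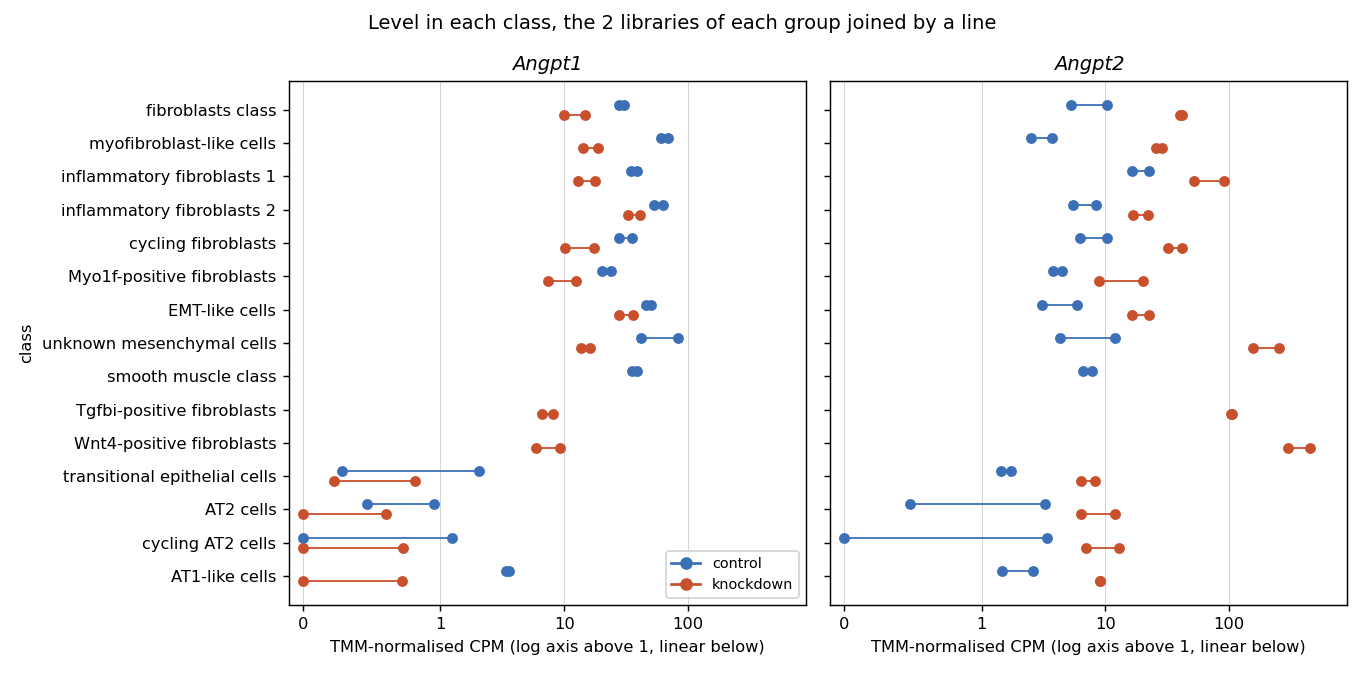
Levels of Angpt1 (left) and Angpt2 (right) in each class with at least 50 cells in both libraries of a group, in TMM-normalised CPM on an axis that is logarithmic above 1 and linear below. Each line joins the 2 libraries of a group, and the Angpt2 knockdown points run from 6.30 CPM in the transitional epithelial cells up to 297 and 451 CPM in Wnt4-positive fibroblasts.

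Within the 12 classes that had at least 50 cells in every library, the counts of the set were read against those of all genes. In the fibroblasts class, 8.23% of all tested genes were called (3.81% higher and 4.42% lower), and of 9.0 genes of the set tested 4.0 rose and 2.0 fell. In myofibroblast-like cells, 7.33% of all tested genes were called (3.39% higher and 3.95% lower), and of 8.0 genes of the set tested 4.0 rose and 3.0 fell. In inflammatory fibroblasts 1, 2.53% of all tested genes were called (1.15% higher and 1.39% lower), and of 7.0 genes of the set tested 3.0 rose and 2.0 fell. In inflammatory fibroblasts 2, 2.56% of all tested genes were called (1.4% higher and 1.16% lower), and of 7.0 genes of the set tested 3.0 rose and 1.0 fell. Among cycling fibroblasts, 2.31% of all tested genes were called (1.15% higher and 1.16% lower), and of 7.0 genes of the set tested 2.0 rose and 2.0 fell. Among Myo1f-positive fibroblasts, 2.48% of all tested genes were called (1.28% higher and 1.2% lower), and of 5.0 genes of the set tested 1.0 rose and 0.0 fell. Among EMT-like cells, 6.24% of all tested genes were called (3.02% higher and 3.22% lower), and of 7.0 genes of the set tested 2.0 rose and 2.0 fell. Among unknown mesenchymal cells, 1.31% of all tested genes were called (0.593% higher and 0.718% lower), and of 6.0 genes of the set tested 1.0 rose and 1.0 fell.

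On the epithelial side, in AT1-like cells, 0.51% of all tested genes were called (0.265% higher and 0.246% lower), and of 4.0 genes of the set tested 1.0 rose and 0.0 fell. For AT2 cells, 0.922% of all tested genes were called (0.447% higher and 0.475% lower), and of 4.0 genes of the set tested 1.0 rose and 0.0 fell. For cycling AT2 cells, 1.34% of all tested genes were called (0.376% higher and 0.96% lower), and of 3.0 genes of the set tested 1.0 rose and 0.0 fell. For transitional epithelial cells, 0.304% of all tested genes were called (0.205% higher and 0.0986% lower), and of 5.0 genes of the set tested 1.0 rose and 0.0 fell. In each of these 4 epithelial classes the gene that rose was Angpt2, which passed the filter on low counts there only through the knockdown libraries.

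Within classes the direction of the angiopoietin changes was the same in every class where they could be tested. Of the 12 classes, Angpt2 could be tested in 11 and rose in all 11, by log2 1.55 ± 0.34 in inflammatory fibroblasts 2 up to 4.45 ± 0.47 in unknown mesenchymal cells. Of all genes tested in those classes, 0.205% (transitional epithelial cells) to 3.81% (fibroblasts class) were called as higher. Unknown mesenchymal cells, the top of that range, held 1 and 4 Angpt2 UMIs in controls. There Angpt2 passed the filter on low counts only through the knockdown libraries. The same held in the 4 epithelial classes, with control levels of 0 to 3.75 CPM. A class low in both groups could not be tested, so 11 of 11 is not separate support. In the untested Myo1f-positive fibroblasts, 1.17% of control and 1.63% of knockdown cells had an Angpt2 UMI after thinning (group means, exact permutation p = 0.667). In myofibroblast-like cells Angpt2 read 2.45 and 3.61 CPM in controls and 29.2 and 25.6 CPM in knockdowns (3.17 ± 0.26, adjusted p = 1.00e-06). Angpt1 fell in 5 of the 8 classes tested and was below 0 on the log2 scale in the other 3. Its fall ranged over those 5 from -1.14 ± 0.26 in cycling fibroblasts to -2.04 ± 0.39 in unknown mesenchymal cells, where 0.718% to 4.42% of all genes were called as lower. In myofibroblast-like cells it read 59.4 and 67.1 CPM against 18.9 and 14.3 CPM (-1.93 ± 0.18, adjusted p = 4.66e-06). Some of these calls were lost under alternatives. Angpt2 was lost without either knockdown library in cycling fibroblasts (highest adjusted p = 0.74) and without control library 1 or knockdown library 2 in inflammatory fibroblasts 2 (highest 0.102). Angpt1 was lost without either knockdown library in cycling fibroblasts (0.74), without knockdown library 2 in inflammatory fibroblasts 1 (0.162) and without control library 1 in unknown mesenchymal cells (0.111). DESeq2 did not call Angpt2 in inflammatory fibroblasts 2 (adjusted p = 0.0936), nor Angpt1 in cycling fibroblasts (0.132) and inflammatory fibroblasts 1 (0.103).

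The class deposited simply as fibroblasts was held by different clusters in the groups, cluster 0 in controls (2412 and 2035 cells) and cluster 5 in knockdowns (1393 and 1149 cells). The part of this in the angiopoietin changes was not tested. In that class Angpt2 rose by 2.40 ± 0.23 and Angpt1 fell by 1.23 ± 0.18 on the log2 scale. In its cluster 8, which had 347 to 680 cells in every library, Angpt2 read 1.499 and 4.46 CPM in controls and 16.97 and 18.6 CPM in knockdowns, while Angpt1 read 20.0 and 17.9 CPM against 15.7 and 12.5 CPM (CPM without TMM factors). In its cluster 11 Angpt2 also stood higher in the knockdowns, at 39.9 and 59.2 CPM against 19.5 and 29.7 CPM. There the Angpt1 libraries overlapped, at 24.3 and 22.9 CPM against 30.3 and 14.8 CPM. In cluster 4 of the myofibroblast-like cells, the larger cluster of that class in both groups, Angpt1 read 83.5 and 88.2 CPM in controls and 19.9 and 14.9 CPM in knockdowns.

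Angptl4 rose in 7 of 12 classes, each a fibroblast or EMT-like class. In the 4 epithelial classes it passed in 0 by edgeR, in 0 by DESeq2 and in 1 at an unadjusted p under 0.05, and in transitional epithelial cells it passed with a replicate block (0.45, adjusted p = 0.0151). Its level was highest in inflammatory fibroblasts 1 in both groups, at 188 and 265 CPM in controls and 409 and 514 CPM in knockdowns, and the control order below it overlapped down to the smooth muscle class. Among fibroblast classes the knockdown levels lay between 226 CPM and 514 CPM, and among epithelial classes between 18.7 CPM and 37.9 CPM. The rise within classes ran from 0.77 ± 0.21 in Myo1f-positive fibroblasts to 1.11 ± 0.21 in inflammatory fibroblasts 1. Of all genes, 1.15% to 3.81% were called as higher in these 7 classes. The call ended without control library 1 in 5 of them (inflammatory fibroblasts 1 and 2, cycling, Myo1f-positive and EMT-like cells), and also without either knockdown library in inflammatory fibroblasts 2, cycling and Myo1f-positive fibroblasts. Over these alternatives the highest adjusted p was 0.74. DESeq2 did not call it in Myo1f-positive fibroblasts (adjusted p = 0.223) and inflammatory fibroblasts 2 (0.0533).

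Vegfa was positive on the log2 scale in 12 of 12 classes and passed in 4 of them, where 1.15% to 3.81% of all genes were called as higher. These were the fibroblasts class (0.79 ± 0.14, adjusted p = 0.00677), myofibroblast-like cells (0.67 ± 0.16, 0.0126) and inflammatory fibroblasts 1 and 2 (0.76 ± 0.20 and 0.73 ± 0.20, 0.0418 and 0.0473). The last 2 calls were lost without either control library, without knockdown library 2 and by DESeq2 (highest adjusted p of 0.597 and 0.637). That in myofibroblast-like cells was lost without knockdown library 2 (0.059). Its highest level was in Tgfbi-positive fibroblasts of the knockdowns, at 273 and 325 CPM, above myofibroblast-like cells at 211 and 216 CPM without overlap. In controls myofibroblast-like cells were highest at 146 and 129 CPM. AT1-like cells, which resemble the thin gas-exchange cells of the alveolus, carried the most Vegfa among epithelial classes, at 96.2 and 118 CPM in controls and 192 and 139 CPM in knockdowns.

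Vegfc fell in 3 of 9 classes tested, where 3.22% to 4.42% of all genes were called as lower. In myofibroblast-like cells it went from 30.0 and 28.3 CPM to 11.6 and 10.2 CPM (-1.41 ± 0.21, adjusted p = 0.000363), and it also fell in the fibroblasts class (-0.88 ± 0.15) and in EMT-like cells (-0.74 ± 0.17, lost without knockdown library 2 with adjusted p = 0.162 and by DESeq2 with 0.0796). In inflammatory fibroblasts 1 its libraries overlapped, at 19.04 and 26.8 CPM against 25.2 and 21.7 CPM (0.02 ± 0.24, adjusted p = 0.981). Wnt4-positive fibroblasts had the lowest Vegfc of any fibroblast class, at 3.37 and 3.19 CPM. Vegfd passed in 0 of 11 classes by edgeR and in 0 by DESeq2 (which gave 1 of the 11 no adjusted p), with 4 classes at an unadjusted p under 0.05. With a replicate block, and without control library 1, it passed as lower in the fibroblasts class, cycling fibroblasts and inflammatory fibroblasts 2 (lowest adjusted p of 0.0125, 0.00341 and 0.0229). It was highest in EMT-like cells in both groups, at 74.0 and 103 CPM in controls and 82.6 and 87.1 CPM in knockdowns.

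Flt1 fell in 5 of 6 classes tested, where 1.16% to 3.95% of all genes were called as lower. In EMT-like and myofibroblast-like cells, cycling fibroblasts and the fibroblasts class it passed the filter on low counts only through the controls. A class low in both groups could not be tested, so 5 of 6 is not separate support. Control levels were highest in inflammatory fibroblasts 1 (26.4 and 24.6 CPM) and inflammatory fibroblasts 2 (23.9 and 21.3 CPM), and the first 6 steps down the order were free of overlap. Inflammatory fibroblasts 1 were 7.52% and 8.67% of control cells and held 25.9% and 28.9% of their Flt1 UMIs, and inflammatory fibroblasts 2 were 6.91% and 7.56% of control cells and held 27.5% and 26.2%. In the knockdowns the classes were 2.11% and 3.18%, and 1.66% and 1.72%, of the cells. The fall was also present inside them, from 24.2 and 22.3 CPM to 3.50 and 11.96 CPM in inflammatory fibroblasts 1 (-1.50 ± 0.33, adjusted p = 0.0132) and from 21.8 and 19.3 CPM to 3.80 and 5.65 CPM in inflammatory fibroblasts 2 (-2.14 ± 0.38, adjusted p = 0.00147). Of the 6 classes the difference was largest in myofibroblast-like cells (-3.06 ± 0.48). Flt1 was lost without knockdown library 1 in inflammatory fibroblasts 1 (adjusted p = 0.103), without knockdown library 2 in EMT-like cells (0.113) and without either in cycling fibroblasts (0.74). DESeq2 did not call it in inflammatory fibroblasts 1 (0.114) and cycling fibroblasts (0.134). In the fibroblasts class, with 1.70 and 1.48 CPM against 1.17 and 0.440 CPM, it did not pass (adjusted p = 0.21).

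Kdr could be tested in 2 classes and rose in both, the fibroblasts class (3.20 ± 0.71, adjusted p = 0.0181) and myofibroblast-like cells (2.58 ± 0.54, adjusted p = 0.00627, and 0.239 without knockdown library 2). Of all genes tested in these 2 classes, 3.81% and 3.39% were called as higher. In both classes Kdr passed the filter on low counts only through the knockdown libraries, with control levels of at most 0.865 CPM. A class without a rise could therefore not have been tested, and 2 of 2 is not separate support. In the fibroblasts class control library 2 had 0 UMIs, and the fitted difference was 2.21 without that library and 7.31 without control library 1. In the knockdowns, among classes with at least 50 cells in both libraries, it was highest in Tgfbi-positive fibroblasts, at 10.2 and 11.1 CPM, which held 28.9% and 22.6% of all Kdr UMIs. The next class, cycling fibroblasts, read 2.12 and 11.1 CPM, so the libraries of these classes overlapped. The mesothelial class, with 27 and 15 knockdown cells, read 199.8 and 115 CPM without TMM factors. Kdr was at 0 in controls in every epithelial class.

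**Figure D4:**
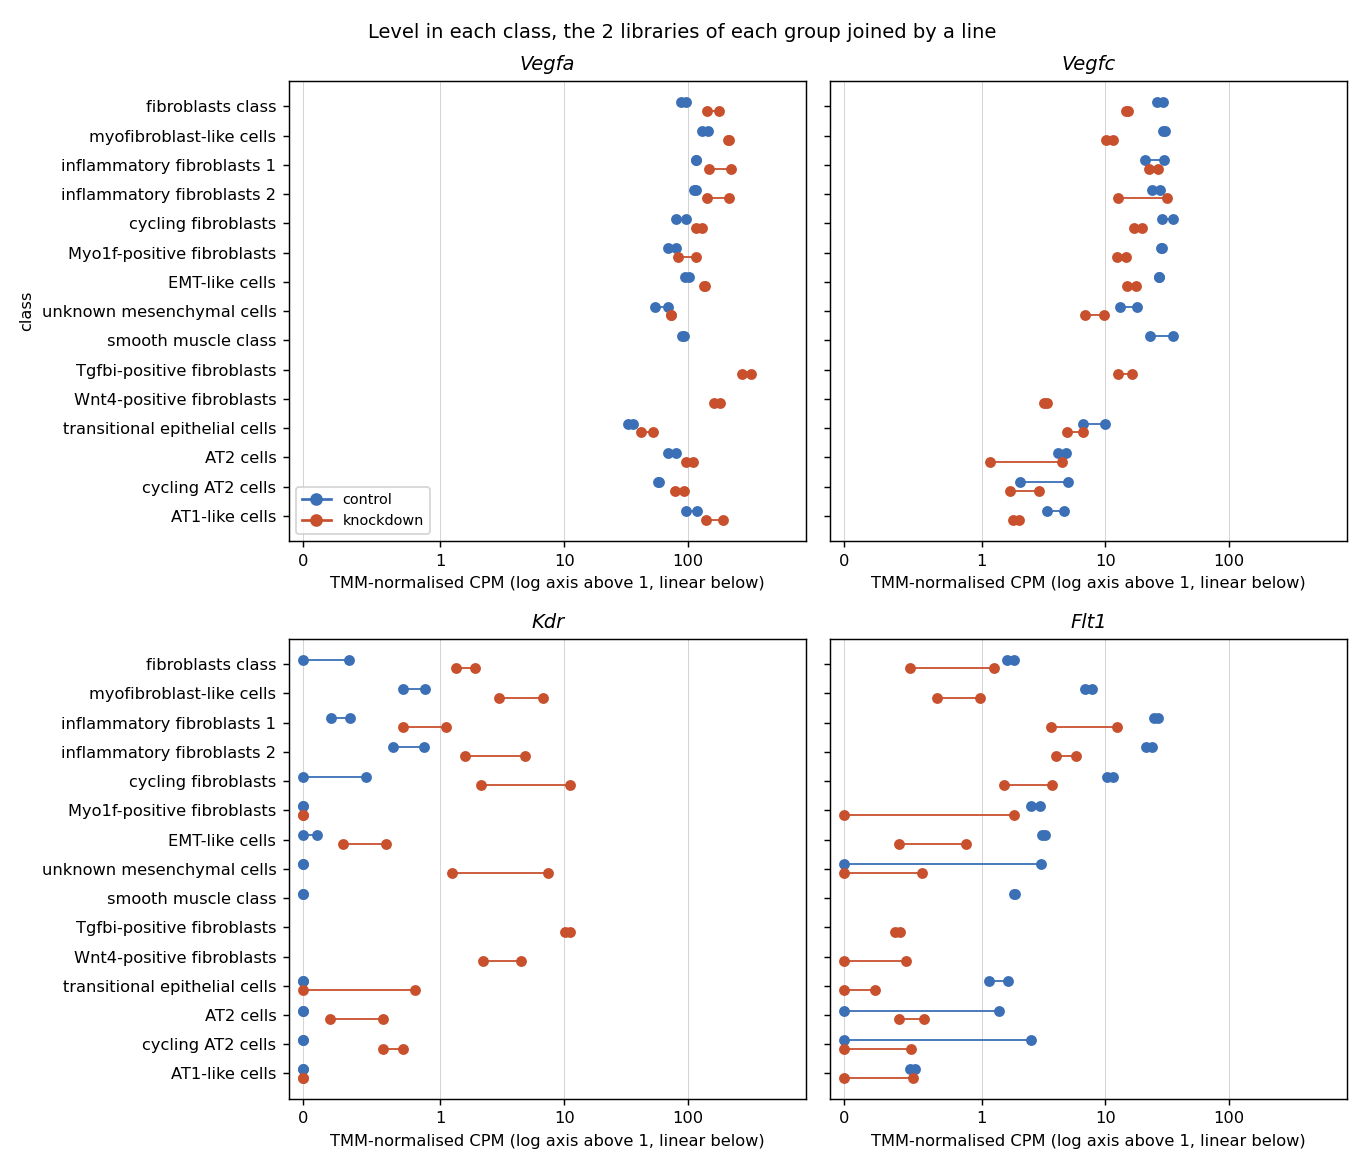
Levels of Vegfa, Vegfc, Kdr and Flt1 in each class with at least 50 cells in both libraries of a group, in TMM-normalised CPM on an axis that is logarithmic above 1 and linear below. Lines join the 2 libraries of a group, and control Flt1 stands at 21.3 to 26.4 CPM in the inflammatory classes against 3.66 to 12.3 CPM in the knockdowns.

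**Figure D5:**
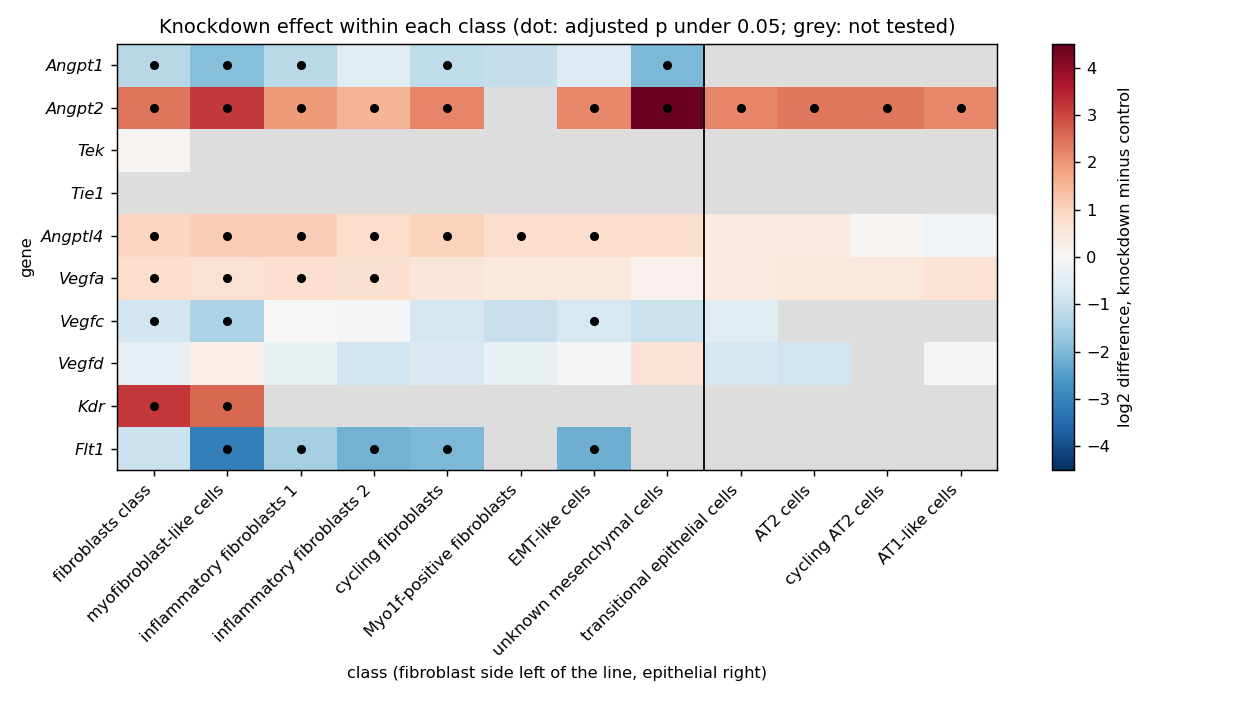
Log2 difference, knockdown minus control, of each gene (rows) in each of the 12 classes tested (columns), with red higher and blue lower in the knockdown. Black dots passed at an adjusted p under 0.05 and grey cells were below the filter on low counts, and the Angpt2 row is red with a dot in 11 of 12 classes.

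In the epithelial cells, which were wildtype in both groups, Angpt2 was again higher and was the single gene of the set to pass. It read 1.66 and 1.99 CPM in controls and 9.06 and 9.67 CPM in knockdowns, a log2 difference of 2.36 ± 0.28 with adjusted p = 0.000457. Of 13952 genes tested, 1.44% were called. Of the 10 genes of the set 6 were tested, 1 rose (0.681% of all genes were called as higher), 0 fell and 5 did not pass, and the median log2 difference of the 6 was -0.11 against 0.02 over all genes. At an unadjusted p under 0.05, 1586 of the 13952 genes passed. Angpt2 rose in all 4 epithelial classes, including AT2 cells (3.18 and 0.465 CPM against 11.1 and 6.63 CPM, adjusted p = 0.00804) and AT1-like cells (1.53 and 2.82 CPM against 9.72 and 10.0 CPM, adjusted p = 0.0465). Only the knockdown libraries of these 4 classes passed the filter on low counts for Angpt2. Its control UMIs were 7 and 1 in AT2 cells and 0 and 5 in cycling AT2 cells. The call ended without control library 2 or knockdown library 1 in AT2 cells (highest adjusted p = 0.553), without any 1 of the 4 libraries in AT1-like cells (0.874), and without control library 1 or knockdown library 2 in cycling AT2 cells (1.00) and transitional cells (0.129). DESeq2 called it in none of these 4 classes, with adjusted p from 0.178 to 1.00.

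Droplets can take up free RNA from other cells, so the epithelial level was set against that of the fibroblasts. Epithelial Angpt2 was 31.1% and 21.7% of the fibroblast level in controls and 11.8% and 9.79% in knockdowns. Summed markers of fibroblasts stood in the epithelial cells at 13.03% and 8.61% of their fibroblast level in controls and at 9.03% and 6.50% in knockdowns. Immune markers also stood higher in the knockdown epithelium, with 2 of 3 tested called as higher (0.681% of all genes were). Their summed levels were 2.08 and 2.46 CPM in controls and 11.5 and 10.8 CPM in knockdowns. The part of either in the epithelial Angpt2 rise was not tested. After thinning, 0.29% (95% exact interval 0.106 to 0.630) and 0.243% (0.0661 to 0.620) of control epithelial cells carried an Angpt2 UMI, against 1.96% (1.46 to 2.58) and 1.99% (1.29 to 2.92) of knockdown epithelial cells.

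Vegfa in the epithelium read 61.4 and 71.1 CPM in controls and 104 and 91.3 CPM in knockdowns, a log2 difference of 0.57 ± 0.17 that did not pass (adjusted p = 0.16). Its epithelial level was 53.0% to 76.5% of the fibroblast level over the 4 libraries, above the 6.50% to 13.03% of the fibroblast markers. Angptl4 read 26.0 and 29.7 CPM against 32.2 and 34.8 CPM (0.27 ± 0.16, adjusted p = 0.545). Angpt1, Vegfc and Vegfd had log2 differences of -1.65 ± 0.61, -0.56 ± 0.27 and -0.49 ± 0.23, with adjusted p of 0.304, 0.447 and 0.431. With the mixed clusters added all 3 were called as lower (-2.43, -1.12 and -0.80, adjusted p of 0.000846, 0.00924 and 0.0326), and Angpt1 was also called without knockdown library 1 (-3.83, adjusted p = 0.0208). Tek, Tie1, Kdr and Flt1 were below the filter on low counts there.

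Whether fibroblasts responded more strongly than epithelium was tested through an interaction term in a model with 1 block per library. Of 17188 genes, 3.55% were called, and 2 of the 9 genes of the set tested were among them. The fibroblast effect exceeded the epithelial effect by 1.21 ± 0.28 for Angpt2 (adjusted p = 0.041) and by 0.65 ± 0.14 for Angptl4 (adjusted p = 0.0316). Neither call held under all 12 alternatives. For Angpt2 the adjusted p was 0.424 without control library 1 and 0.056 without control library 2, and for Angptl4 it was 0.467 without control library 1 and 0.0767 without knockdown library 1. The Angpt2 call was also lost by limma voom (adjusted p = 0.0565), with a gene length offset (0.0632), with the mixed clusters (0.102), with a replicate block (0.128) and with no library block (0.411). The Angptl4 call was also lost in the last 2 of these fits (0.169 and 0.512). Effects on Angpt1, Vegfa, Vegfc and Vegfd did not pass as different (adjusted p of 0.827, 0.691, 0.416 and 0.823).

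Counts of positive cells moved as the summed levels did. After thinning every fibroblast to 2000 UMIs, which left out 896, 626, 252 and 45 shallower cells in control libraries 1 and 2 and knockdown libraries 1 and 2, Angpt2 was found in 1.00% and 1.70% of control and 11.6% and 13.5% of knockdown fibroblasts. Without thinning the shares were 2.12% and 3.61% against 19.7% and 23.5%. Angpt1 was found in 7.02% and 6.25% against 2.95% and 2.32%, Vegfc in 4.62% and 5.43% against 2.23% and 2.40%, and Flt1 in 1.21% and 1.25% against 0.0831% and 0.197%. For Angptl4 the shares were 21.3% and 28.1% against 39.1% and 42.3%, and for Vegfa 17.5% and 15.5% against 22.6% and 25.6%. The groups were separate for all of these, which at 2 against 2 libraries gives an exact permutation p = 0.333, the smallest possible. The share of all genes with separate groups is not given here. On summed levels, 4975 of the 17481 genes tested in fibroblasts had an unadjusted p under 0.05 by edgeR. The shares of cells come from the same UMIs as the summed levels and are not separate support. Over all cells and without thinning, UMIs per Angpt2-positive cell were 1.17 and 1.20 in both controls and 1.96 and 2.71 in the knockdowns.

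Other genes of the angiopoietin and VEGF systems were counted from lists, beside 4.42% of all genes called as higher and 6.22% as lower in fibroblasts. In fibroblasts, 7 of 7 further angiopoietin pathway genes were tested. Foxo1, a transcription factor that Tie2 signalling restrains in endothelium, rose (log2 0.51 ± 0.11, adjusted p = 0.0291), while Svep1, a large extracellular protein that binds Tie1 (-0.80 ± 0.14, 0.0139), and Ptprb, the phosphatase VE-PTP that acts on Tie2 (-1.29 ± 0.32, 0.0405), fell. The Foxo1 and Svep1 calls were lost without the classes held mostly by 1 group, and without knockdown library 2 all 3 were lost, Foxo1 also without knockdown library 1. Ptprb was also lost with a gene length offset. Of 7 further VEGF genes, 2 rose and 0 fell: the ligand Vegfb, from 8.69 and 10.46 CPM to 16.9 and 19.8 CPM (0.94 ± 0.14, adjusted p = 0.00767), and the co-receptor Nrp2, from 62.3 and 69.9 CPM to 125 and 128 CPM (0.94 ± 0.11, adjusted p = 0.00352). Nrp2 did not pass without the classes held mostly by 1 group (0.17, adjusted p = 0.398). The medians of these 2 lists were 0.02 and -0.05, against 0.01 over all genes.

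Of the 5 other angiopoietin-like genes tested, Angptl7 (-3.37 ± 0.44, adjusted p = 0.00461) and Angptl1 (-1.86 ± 0.40, 0.0267) fell from levels of at most 1.99 CPM, and 3 did not pass (median -0.32). Among 13 lipid genes known beside Angptl4 as PPAR targets or factors, the fatty acid transporter Cd36 rose (1.05 ± 0.24, adjusted p = 0.0312) and 12 did not pass (median 0.24). That 1 of 13 stands beside 4.42% of all genes called as higher. Of 16 genes of the hypoxia response, which drives Vegfa in many tissues, 0 rose, the oxygen sensor gene Egln3 fell (-0.60 ± 0.13, adjusted p = 0.0288) and 15 did not pass (median -0.09), beside 6.22% of all genes called as lower. Among 20 other secreted regulators of vessel growth, Col18a1, whose product is the source of endostatin, rose from 102 and 132 CPM to 247 and 254 CPM (1.10 ± 0.15, adjusted p = 0.00542), and the guidance cue Ntn1 rose as well (0.65 ± 0.14, 0.0284). The semaphorins Sema3e (-0.89 ± 0.17, adjusted p = 0.0175) and Sema3c (-0.52 ± 0.10, 0.0196) fell, and 16 did not pass (median 0.06). These 2 higher and 2 lower of 20, and the 2 lower of 5 angiopoietin-like genes, stand beside the same 4.42% and 6.22% of all genes. Cd36 was lost without knockdown library 1, Angptl1 without knockdown library 2, Egln3 and Sema3c without either, and Ntn1 and Sema3e without knockdown library 1. Angptl1 was also lost by DESeq2, Cd36 and Sema3c in the deposited fibroblast classes alone, Egln3 and Sema3c without the classes held mostly by 1 group, and Sema3c and Sema3e with a gene length offset.

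In the epithelium the same lists gave 4 calls, with 6, 6, 1, 13, 16 and 20 genes tested in the order used above. Over all genes tested there, 1.44% were called, 0.681% as higher and 0.76% as lower. Vegfb rose from 11.9 and 15.01 CPM to 33.2 and 31.0 CPM (1.26 ± 0.18, adjusted p = 0.00159). Svep1 fell (-1.21 ± 0.27, adjusted p = 0.0404), as did Egln3, from 8.10 and 8.56 CPM to 1.29 and 1.70 CPM (-2.50 ± 0.29, adjusted p = 0.000453), and the vasodilator peptide gene Adm (-1.79 ± 0.31, adjusted p = 0.00796). Adm was lost without control library 1, and Svep1 with a gene length offset (adjusted p = 0.106) and with block and length offset (0.173). The other lists, of angiopoietin-like genes (1 tested), PPAR genes (13) and secreted regulators (20), gave 0 calls there by edgeR, with 0, 1 and 3 genes at an unadjusted p under 0.05 and 0, 0 and 0 calls by DESeq2. The median log2 difference lay between -0.24 and 0.10 over the 6 lists.

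Genes with the most similar pattern were taken over 56 profiles of class and library, as the 3 highest Pearson correlations of log2(CPM + 1) for 6 genes of the set with at least 500 UMIs. These profiles share libraries and depth, so the values describe and carry no p. Angptl4 was closest to Psap (r = 0.976), Tspan3 and P3h3. Angpt2 was closest to Tmem165 (r = 0.886), Serinc3 and Hspb1. For Vegfd the closest were Il6st (r = 0.938), Synpo and Cacna1d, for Vegfc Slit2 (r = 0.896), Apbb1ip and Gpm6b, and for Flt1 Tfec (r = 0.804), Adcyap1r1 and Csf1. Of these 6, Vegfa had the weakest match, Ost4 at r = 0.771, followed by Tm9sf3 and Kdelr1, and Tek, Tie1 and Kdr had too few UMIs.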

How the data were processed

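Gene expression libraries made with a 10x Multiome kit, per the labels, were analysed from the deposited matrix of UMI counts for 45936 cells and 32285 genes, which the authors had already filtered and annotated. The steps behind the counts (aligner, counter and cell filter) are not stated by the labels or file headers, and the submitters' processing notes name the builds GRCm38 and mm10. The percent of mitochondrial UMIs and a doublet enrichment ratio per cell were deposited by the authors and entered no fit. The median mitochondrial share over all cells was 23.4% and 21.5% in control libraries 1 and 2, and 24.6% and 17.8% in knockdown libraries 1 and 2. No further doublet removal was run. The deposited annotation of the cells held 52 further columns of descriptors that were not used. For all 45936 cells the sums of counts equalled the deposited totals.

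Cell classes were those of the authors' annotation (15 classes), except for the deposited AT2 class. That class was divided by its deposited clusters into AT2 cells, AT1-like cells, the unnamed cluster 32 and mixed clusters, the last left out. UMIs were summed per library and class or compartment, since cells are not replicates. Genes passing filterByExpr were fitted with edgeR 4.0.16 in R 4.3.3 (TMM factors, quasi-likelihood test, Benjamini-Hochberg adjustment over all genes tested, threshold 0.05). Classes needed 50 cells in every library to be tested. DESeq2 1.42.0 and limma 3.58.1 served as alternatives, beside other size factors, no filter, a gene length offset, a replicate block and leaving out each library. The scripts were tested on simulated counts. Shares of cells were taken after thinning to 2000 UMIs, with 95% exact binomial intervals. Gene positions came from GENCODE release M21, in which 32235 of the 32285 IDs were found.

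The 10 genes and the pathway and marker lists were chosen with earlier results of these data known. All 10 genes were described, and of the list genes those that passed were named. The genes most like Angpt1 in pattern are not reported here.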

Additional observations from a re-analysis of the deposited data

Results flagged for a closer look

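The knockdown effect on Angpt2 was larger in fibroblasts than in epithelial cells by 1.21 ± 0.28 on the log2 scale (edgeR, adjusted p = 0.041, n = 2 libraries per group), a difference that 5 of 12 alternatives also called.

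The effect on Angptl4 was likewise larger in fibroblasts, by 0.65 ± 0.14 (edgeR, adjusted p = 0.0316), and 8 of 12 alternatives called it.

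Kdr appeared in the small mesothelial class, which no comparison used (56 and 45 cells in controls, 27 and 15 in knockdowns). It read 18.8 and 19.2 CPM in control libraries 1 and 2 (4 and 3 UMIs, 95% exact intervals 5.11 to 48.0 and 3.95 to 56.0 CPM). In knockdown libraries 1 and 2 it read 199.8 and 115 CPM (40 and 12 UMIs, intervals 143 to 272 and 59.2 to 200.2 CPM), without TMM factors and with counting error only. The difference was not tested.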

How the results depend on the processing

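Of 47 called results for single genes of the set, over compartments, classes and the interaction, 21 were called under every alternative run. Angpt1, Angpt2, Vegfc, Kdr and Flt1 in fibroblasts were called in all 13 alternatives, with log2 ranges of -1.66 to -1.11, 2.15 to 4.04, -1.06 to -0.78, 2.70 to 3.83 and -2.81 to -2.46. Epithelial Angpt2 was called in all 12, from 2.22 to 2.53.

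The number of genes called moved more. In fibroblasts (1860) it was 5820 with a replicate block (2994 higher and 2826 lower, against 773 and 1087), 4786 with block and gene length offset (2536 and 2250), and 998 to 3666 with 1 library left out, the highest without control library 2 (1987 and 1679). In the epithelium (201) it was 528 with no filter, 329 with a replicate block, 89 with block and length offset, 780 with the mixed clusters added (197 and 583), and 136 to 684 with 1 library left out. For the interaction (610) it was 1303 with no filter, 288 by DESeq2, 1010 with the mixed clusters, 95 with no library block, 261 with a replicate block, and 249 to 975 with 1 library left out. Summed over the classes tested it was 4483, and 2470 by DESeq2, 13295 with a replicate block and 2810 to 7486 with 1 library left out. The causes were not tested.

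Same-numbered libraries deviated together only weakly (r = 0.115 in fibroblasts and 0.0828 in the epithelium, across genes), so the numbers were not taken as pairs. The replicate block in the compartment and class fits, and all fits without 1 library, leave 1 residual degree of freedom per gene. Their p-values therefore rest on the spread shared over genes, and a lone library is assumed to vary like the other group. The interaction fit with a replicate block leaves more.

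No reversed value concerned a called result. Tek in fibroblasts became 0.062 with the length offset and 0.085 with block and length offset, Angptl4 in the epithelium -0.060 and the interaction for Vegfc 0.085 with the mixed clusters. Leaving out 1 library gave ranges that crossed 0 for Tek in fibroblasts (-0.34 to 0.18) and in the fibroblasts class (-0.081 to 0.36). They did so for Angptl4 in AT1-like (-0.46 to 0.034) and cycling AT2 cells (-0.17 to 0.39), and for Vegfd in AT1-like (-0.34 to 0.12), EMT-like (-0.27 to 0.20) and Myo1f-positive cells (-0.70 to 0.095). For Vegfc they did so in inflammatory fibroblasts 1 (-0.21 to 0.28) and 2 (-0.93 to 0.37). Interaction ranges were -0.14 to 2.39 for Angpt1, -0.018 to 0.44 for Vegfa and -0.21 to 0.42 for Vegfd. Depth limited Tek, Tie1 and epithelial Kdr and Flt1.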
